A study of Mus musculus with 6 samples.

Results

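The miR-379 to miR-410 cluster is a row of microRNA (miRNA) hairpins in the imprinted Dlk1-Dio3 region of mouse chromosome 12, whose distal hairpins lie in the long noncoding RNA gene Mirg. Members were all rows of the known miRNA count table, of either arm, that carry 1 of 35 hairpin names of the cluster and hold at least 1 count. Of 1978 known mature miRNAs in the table, 68 rows matched and 65 were members. The other 3, miR-654-5p, miR-654-3p and miR-544-5p, were at 0 in all libraries, and no row carried the name miR-496 without a letter. The members came from 33 hairpins, 32 of them with both arms, and 54 members passed the filter on low counts. The other 11 had means of at most 0.699 CPM (counts per 1000000 known miRNA counts, after TMM scaling between libraries) and were not tested.

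Small RNA libraries were made from c-kit+ cardiac progenitor cells. These are heart cells that display the stem cell factor receptor c-kit and were selected with antibody-coated magnetic beads. They came from enzyme-digested hearts of healthy wild-type C57BL/6 male mice 4 to 6 weeks old. The control group (3 libraries, 0 hours) was compared with the hypoxia group (3 libraries, 12 hours under hypoxia), with no other agent or allele named in either group. The labels' treatment field names hypoxia for the controls too, the extraction protocol speaks of exosomes while the design text speaks of cells, and no source used here states the oxygen level. Time in culture and hypoxia cannot be told apart if the controls were taken at the start. The sample titles call the 3 libraries of each group biological replicates. They name no animal or culture for each library, so the p-values speak of the spread between libraries, whatever its source. Columns of the count table are headed by a digit and by one of the letters A, B and C. Digit 0 was taken as control and digit 1 as hypoxia, while the letters match no label. With this reading miR-210-3p, the best known hypoxia-induced miRNA, was at 188, 296 and 211 CPM in control A, B and C and at 674, 468 and 440 in hypoxia A, B and C.

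As background, a miRNA hairpin is cut into a duplex whose 5p and 3p strands can each enter an Argonaute protein. There the seed, bases 2 to 8, pairs with target messenger RNAs. The hairpins of the Dlk1-Dio3 region are transcribed from the maternally inherited chromosome in a chain of noncoding RNAs that runs through Meg3, Rtl1 antisense, Rian and Mirg. The cluster is best known from brain, embryo and placenta, and in muscle its transcription is controlled by MEF2 factors. Several of its members have been studied in the heart and vessels. miR-410 and miR-495 were reported to promote cardiomyocyte proliferation, and inhibitors of miR-329, miR-487b, miR-494 and miR-495 to improve blood flow recovery in ischaemic mouse limbs.

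On GRCm38 the 34 hairpins with a position spanned 34.7 kb of the plus strand, chr12:109709060-109743795. Mir379 (start 109709060, end 109709125) opens the row and Mir410 (start 109743715, end 109743795) closes it. GENCODE M21 places Mirg, a lincRNA gene, from 109729764 to 109749460. It thus contains 11 of the hairpins, 4 of them in an exon, 4 across an exon boundary and 3 in an intron, while 23 have no host gene annotated on that strand.

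The mature sequences below are those the results turn on: the 3 members that passed the test within letters, the other arm of one of them, the most abundant members, and some arms that share a seed with another miRNA. They are RefSeq sequences, written 5′ to 3′ with the seed in capitals. A RefSeq mature sequence was matched for 61 of the 65 members.
miR-543-3p: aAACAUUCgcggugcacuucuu
miR-495-3p: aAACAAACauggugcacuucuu
miR-369-3p: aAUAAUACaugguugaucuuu
miR-369-5p: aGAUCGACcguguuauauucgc
miR-379-5p: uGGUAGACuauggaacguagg
miR-411-5p: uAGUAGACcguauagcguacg
miR-379-3p: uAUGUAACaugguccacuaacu
miR-411-3p: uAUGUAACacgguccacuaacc
miR-541-5p: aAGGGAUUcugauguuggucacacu
miR-409-3p: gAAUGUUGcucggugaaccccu
miR-381-3p: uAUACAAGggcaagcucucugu
miR-300-3p: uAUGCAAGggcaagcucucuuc
miR-134-5p: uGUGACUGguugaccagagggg
miR-329-3p: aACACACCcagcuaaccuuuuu
miR-410-3p: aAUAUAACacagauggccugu

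Several members resemble each other in sequence but not always in the seed. miR-543-3p and miR-495-3p differ at 4 of 22 positions counted from the 5′ end (U6A, U7A, G9A and C10U, miR-543-3p first), so their seeds differ and their last 12 bases, GGUGCACUUCUU, are the same. Among 1106 mature sequences with a count, those 12 bases occur in 0.181%, which are these 2 members. miR-381-3p and miR-300-3p differ at A4G, G21U and U22C, with 1 of the 3 differences in the seed. By contrast, miR-379-3p and miR-411-3p differ only outside the seed, at U10C and U22C, and share the seed AUGUAAC. The 8-letter pattern AUACANGG was found in 5 of the 1106 sequences (0.452%), all of them members: miR-154-3p, miR-369-3p, miR-381-3p, miR-485-3p and miR-494-3p. Such matches describe letters, not function. The deposited counts do not separate miR-299a from miR-299b. Their hairpins lie on opposite strands of one locus and their arms had the same counts (5p) or counts within 0.188% of each other (3p), so the values of miR-299a are uncertain.

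Seed sharing joined few members. miR-379-5p shares GGUAGAC with miR-1193-5p, miR-410-5p shares GGUUGUC with miR-494-5p, miR-1197-5p shares GGUUGAC with miR-758-5p, and miR-376b-5p shares UGGAUAU with miR-376c-5p. In each of those pairs at least 1 arm is the minor product of its hairpin. Outside the cluster, miR-329-3p has the seed ACACACC in common with miR-362-3p, and miR-410-3p has AUAUAAC in common with miR-344d-3p.

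All members together made up 0.628% of the known miRNA counts. The most abundant member, miR-379-5p, had a mean of 1230 CPM and ranked 61 among known miRNAs. Levels of different miRNAs are compared as counted, and all mature sequences matched are 19 to 25 bases long. No correction was made for differences in capture between sequences. Ranks, shares of the cluster and arm percentages are therefore of counts, not of molecules. The range within the cluster was wide: 16 members had a mean of at least 100 CPM, 35 of at least 10 CPM and 52 of at least 1 CPM. The median tested member had 29.4 CPM, against 18.8 CPM for all 619 miRNAs tested. miR-379-5p held 19.5% of the cluster's counts, the first 4 members 51.7% and the first 12 members 79.2%.

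The first 2 hairpins of the row, miR-379 and miR-411, gave 36.1% of the cluster's counts. miR-541 and miR-409, which lie within the Mirg annotation, gave another 19.9%, and the pair with nearly the same 3p arm, miR-300 and miR-381, gave 11.6%. miR-379-5p was the highest member in each library, at 1970, 850 and 913 CPM in control A, B and C and 1860, 906 and 866 CPM in hypoxia A, B and C. miR-411-5p, cut from the neighbouring hairpin, was at 1410, 555 and 633 CPM in the controls and 1300, 640 and 628 CPM under hypoxia. miR-541-5p followed with 889, 637 and 590 CPM in the controls and 913, 447 and 450 CPM under hypoxia. The next place was not fixed: miR-541-5p exceeded miR-411-5p in control B and was below it in the other 5 libraries.

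In both groups library A stood apart from B and C in its cluster level. The cluster's share of known miRNA counts was 1.00% in control A, 0.412% in control B and 0.507% in control C, and 0.994%, 0.429% and 0.476% in hypoxia A, B and C. Library A therefore held 2.19 times the mean of B and C in the control group and 2.2 times under hypoxia. The widest 95% Clopper-Pearson interval of a library's share reaches 0.00558 percentage points to either side, which covers counting error only. Depth did not follow that order. The totals were 12285970 known miRNA counts in control A, the lowest, and 15596688 in hypoxia A, with the other libraries between 13170756 and 16975987.

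**Figure D1:**
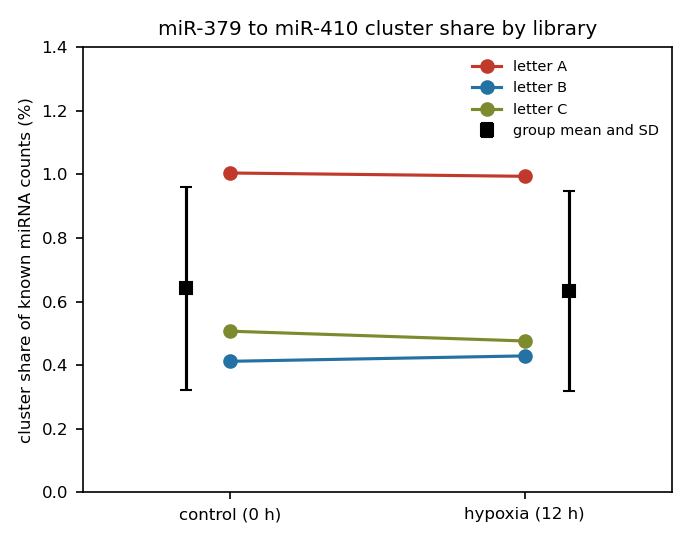
Share of known miRNA counts held by all 65 members (y axis, percent) in each of the 6 libraries, with points coloured by column letter and the mean ± SD of each group. The 2 libraries of letter A lie near 1%, the other 4 between 0.412% and 0.507%, and the group means nearly coincide.

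The excess in A was spread over almost all members. In the control group 52 of 54 tested members (96.3%) were highest in A, with a median log2 ratio of 1.05 to the mean of B and C. Under hypoxia 50 of 54 (92.6%) were highest in A, with a median of 1.03. Of all 619 miRNAs tested, 38.0% were highest in A in either group, and the medians were -0.011 and 0.0021. The letters were not a group of the study and the split was noticed in the data, so these values are descriptive and carry no test.

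Other miRNAs of the same imprinted region had the pattern too. Those of the Rtl1 antisense transcript, which target Rtl1 messenger RNA from the opposite allele, were highest in A for 15 of 15 tested in both groups, with medians of 1.17 and 1.01. The Meg3 and Rian side miRNAs had medians of 0.70 (control) and 0.77 (hypoxia) over 11 tested. Among the cell type lists, the fibroblast and smooth muscle miRNAs (miR-199a, miR-214, miR-143 and miR-145a arms) were highest in A for 5 of 5, with medians of 0.92 and 0.80. Their summed level was 57420, 29830 and 26070 CPM in control A, B and C and 50350, 32970 and 26570 CPM in hypoxia A, B and C. miR-199a-5p, a mesenchymal miRNA of the Dnm3os transcript, was at 2740, 1410 and 1430 CPM in the controls and 3220, 1310 and 1320 CPM under hypoxia. Their part in the cluster's level was not tested.

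In none of the remaining marker lists were all tested miRNAs highest in A. Endothelial miR-126a arms summed to between 200700 and 249600 CPM in every library. The sum in A was 0.982 times the mean of B and C in the control group and 0.846 times under hypoxia. The median log2 ratio of A over the 2 arms was 0.030 in the control group and -0.13 under hypoxia. Cardiomyocyte markers summed to between 76.39 and 172.7 CPM, with miR-208a-3p, made from a myosin heavy chain intron, below 1 CPM throughout. Blood markers reached at most 30.67 CPM and epithelial markers at most 10.31 CPM. The neural list summed to between 387.6 and 473.5 CPM, nearly all of it miR-128-3p, which many tissues express. miR-124-3p, the defining neuronal miRNA, averaged 2.44 CPM. The neural median log2 ratio of A was -0.079 in the control group and 0.35 under hypoxia. Of the 4 neural miRNAs tested, 1 was highest in A in each group, miR-9-5p, named after its values were seen. miR-9-5p was at 36.7, 25.6 and 18.3 CPM in control A, B and C and 40.3, 27.5 and 23.2 CPM under hypoxia. In such bulk libraries more cells that express the cluster and more RNA per cell cannot be told apart.

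**Figure D2:**
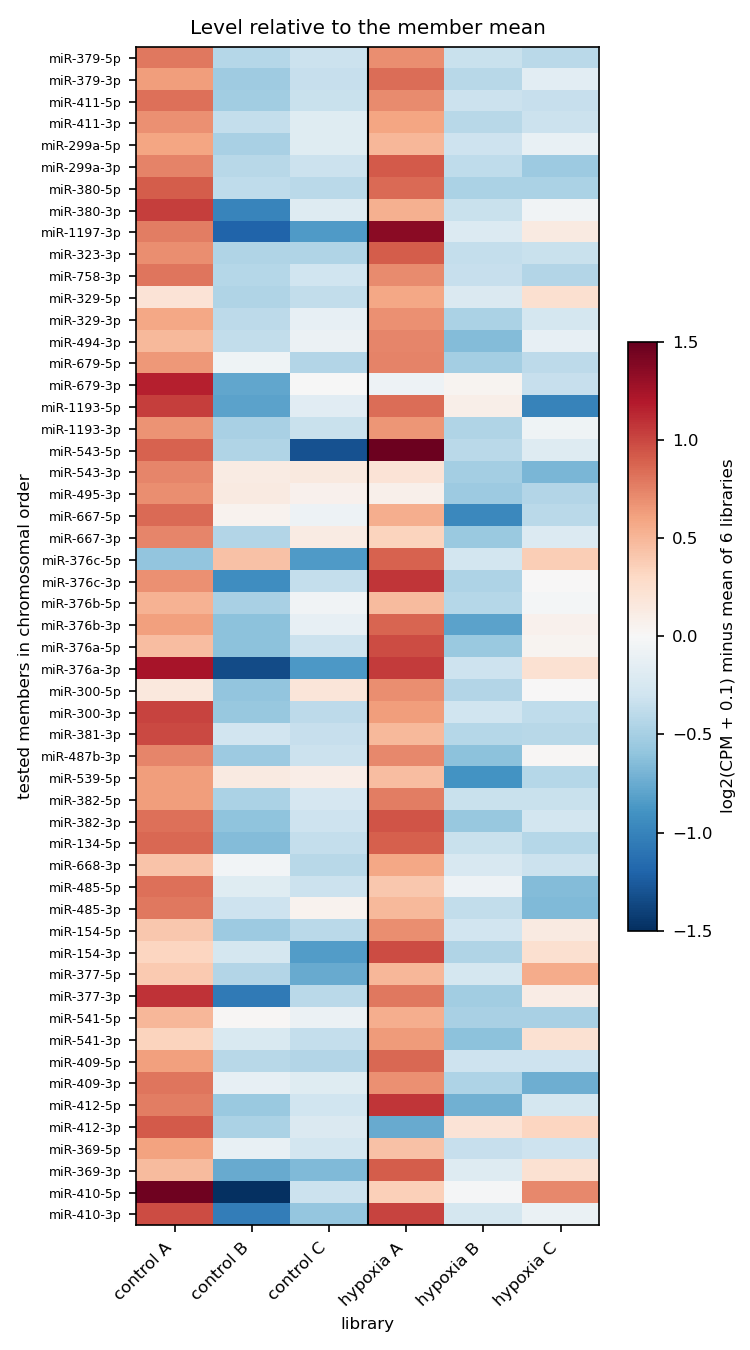
Level of the 54 tested members (rows, in chromosomal order) in the 6 libraries (columns), as log2(CPM + 0.1) minus the row's mean over the libraries. Both A columns are red in nearly every row from miR-379 to miR-410, while miR-543-3p and miR-495-3p are paler or blue in the hypoxia columns and miR-369-3p is bluest in control B and C.

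No difference in the cluster's summed share between hypoxia and control was detectable over the spread between libraries. The mean share was 0.641% ± 0.318 (SD, n = 3) in the controls and 0.633% ± 0.313 (SD, n = 3) under hypoxia, a difference of -0.0081 percentage points. The 2-sided exact permutation test gave p = 0.9, where the smallest p that 3 against 3 can give is 0.1. Within letters the differences were -0.010 points in A, 0.017 in B and -0.031 in C, with an exact sign-flip p of 0.75 (the smallest it can give is 0.25). With the A libraries left out, the difference was -0.0069 points.

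Member by member, edgeR's quasi-likelihood test of hypoxia against control found no member past a Benjamini-Hochberg adjusted p of 0.05, and no miRNA among all 619 tested (0.0%). At an unadjusted p under 0.05 it found 1 member, miR-495-3p, of 54, against 6.79% of all miRNAs tested. DESeq2 called 0 members, and 1 of all 1322 miRNAs it tested. Of the 54 members, 31 had a log2 fold change above 0, with a median of 0.05 against 0.01 over all miRNAs. No tested member had groups that do not overlap in CPM, against 12.9% of all tested miRNAs. The median standard error of a member's log2 fold change was 0.42, against 0.28 over all miRNAs.

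Same-lettered libraries of the groups deviated together, so the comparison was also made within letters, with the letter as a block. The median standard error of the members then fell to 0.142, against 0.154 over all miRNAs, and 3 of 54 members passed the adjusted threshold: miR-543-3p and miR-495-3p fell and miR-369-3p rose. Over all 619 miRNAs 14 passed (2.26%), 6 higher (0.969%) and 8 lower (1.29%) under hypoxia. At an unadjusted p under 0.05 there were 13 members (24.1%), 8 higher and 5 lower, against 21.3% of all. The direction within letters was counted as well: 13 members (24.1%) were higher in hypoxia within all 3 letters, against 20.0% of all miRNAs, and 11 (20.4%) were lower, against 19.5%. The other 30 were of mixed sign. The median log2 fold change of the members was 0.06, against 0.01 over all.

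miR-543-3p, from the hairpin 8.2 kb downstream of the start of Mir379 (Mir543, start 109717258, end 109717333), was at 443, 290 and 294 CPM in control A, B and C and at 307, 187 and 165 CPM in hypoxia A, B and C. Each hypoxia library was below the control of its letter, and the groups overlapped only because hypoxia A exceeded control B and C. The means were 342 ± 86.9 CPM and 219 ± 76.4 CPM (SD, n = 3 each). Without the block the log2 fold change was -0.64 (SE 0.29, edgeR adjusted p = 0.724). With the block it was -0.67 (SE 0.12, edgeR adjusted p = 0.0243). As a share of the cluster's own counts miR-543-3p made up 4.43%, 6.31% and 6.01% in the controls and 3.29%, 4.18% and 3.62% under hypoxia.

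miR-495-3p comes from the next hairpin of the table (Mir495, start 109718754, end 109718816) and ends in the same 12 bases. It was at 166, 112 and 107 CPM in the controls and at 108, 69.9 and 75.2 CPM under hypoxia. Again every hypoxia library was below its lettered control, and hypoxia A lay at the level of control B and C. The log2 fold change was -0.60 without the block (SE 0.26, edgeR adjusted p = 0.724) and -0.60 with it (SE 0.12, edgeR adjusted p = 0.0317). Its share of the cluster's counts was 1.66%, 2.43% and 2.18% in the controls and 1.16%, 1.56% and 1.65% under hypoxia. Nearby members had log2 fold changes of either sign with the block, none past the adjusted threshold: -0.54 and -0.29 for miR-667-5p and miR-667-3p, 0.61 for miR-543-5p, and 0.73 and 0.40 for miR-376c-5p and miR-376c-3p. Of these, miR-543-5p (mean 1.36 CPM, SE 0.46) and miR-376c-5p (mean 0.597 CPM, SE 0.76) were at low levels.

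miR-369-3p, from the second hairpin from the distal end (Mir369, start 109743418, end 109743496, across an exon boundary of Mirg), is known as a miRNA recruited to the AU-rich element of TNF messenger RNA in quiescent cells. It was at 137, 58.4 and 62.5 CPM in the controls and at 185, 86.3 and 116 CPM under hypoxia, higher in each letter. The means were 85.9 ± 44.2 CPM and 129 ± 50.6 CPM (SD, n = 3 each), and control A exceeded hypoxia B and C. The log2 fold change was 0.59 without the block (SE 0.40, edgeR adjusted p = 0.877) and 0.63 with it (SE 0.13, edgeR adjusted p = 0.0411). Within the cluster's counts its share was 1.37%, 1.27% and 1.28% in the controls and 1.99%, 1.93% and 2.55% under hypoxia. On this scale the groups did not overlap for 16 of the 65 members, these 3 among them, so the absence of overlap does not single them out. The 16 include the untested miR-487b-5p, with 8 counts in total. A share of the cluster's counts exists only for members, so no figure over all miRNAs can be set beside this count.

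These 3 calls were not kept without the pair of letter A or without that of letter C. With pair A left out the log2 fold changes were -0.74 (miR-543-3p), -0.59 (miR-495-3p) and 0.73 (miR-369-3p), and the smallest edgeR adjusted p was 0.0558. With pair C left out they were -0.59, -0.66 and 0.49, each with an adjusted p of 0.467. In both cases no member was called, and neither was any of the 625 (without pair A) or 628 (without pair C) miRNAs tested. With pair B left out the 3 were called and miR-154-3p with them, in a fit that called 23 of 627 miRNAs.

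**Figure D3:**
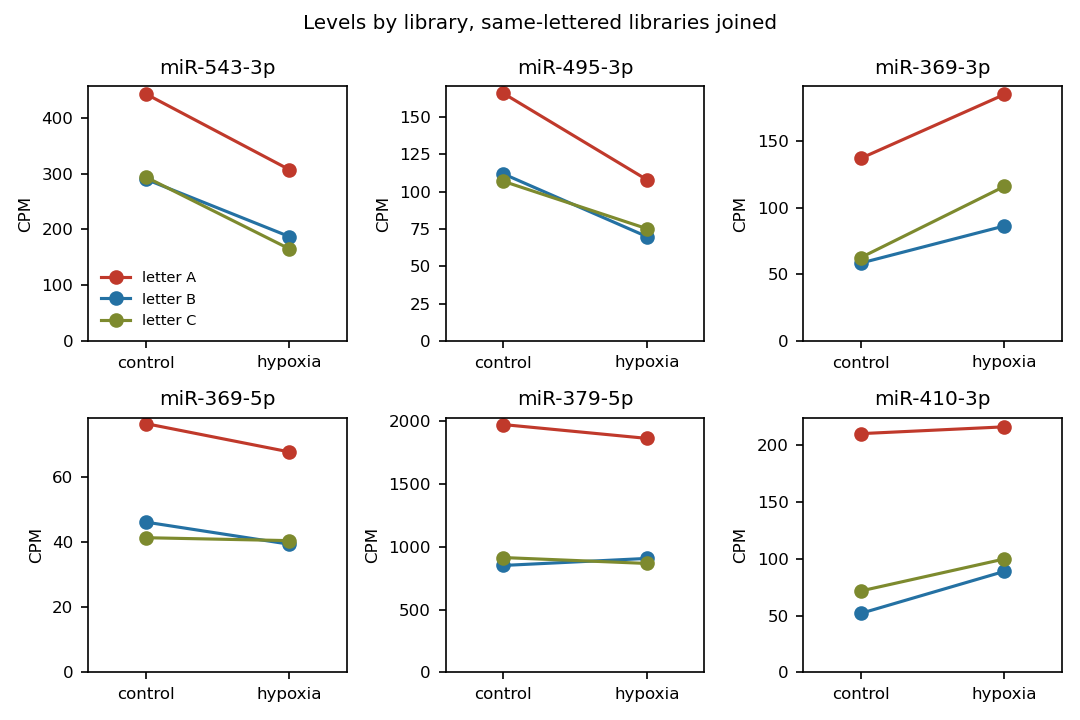
CPM (y axis) of 6 members in the control and hypoxia libraries, with lines joining libraries of the same letter. The lines of miR-543-3p and miR-495-3p all fall and those of miR-369-3p all rise, whereas those of miR-369-5p fall slightly, those of miR-379-5p are nearly flat and miR-410-3p is flat in A and higher in hypoxia in B and C.

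The abundant members at the proximal end differed little between groups. miR-379-5p had means of 1240 ± 629 CPM in the controls and 1210 ± 563 CPM under hypoxia (SD, n = 3 each), and its log2 fold change with the block was -0.02. For miR-411-5p it was 0.03. Of the 3p arms of these hairpins, which share a seed, miR-379-3p was at 73.0, 32.7 and 37.1 CPM in the controls and 84.4, 35.4 and 42.4 CPM under hypoxia, and miR-411-3p was at 199, 96.4 and 109 CPM and 186, 92.7 and 99.3 CPM. miR-541-5p had a log2 fold change of -0.29 with the block (edgeR adjusted p = 0.236).

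Among the other abundant members, miR-409-3p was at 826, 436 and 419 CPM in the controls and 763, 343 and 285 CPM under hypoxia. It was lower in every letter, with a log2 fold change of -0.34 with the block (edgeR adjusted p = 0.148). miR-381-3p was at 841, 347 and 332 CPM and then 592, 316 and 318 CPM, and its near copy miR-300-3p at 518, 172 and 194 CPM and then 396, 208 and 196 CPM. Within letters miR-381-3p was lower under hypoxia in all 3, most in A, whereas miR-300-3p was lower in A, higher in B and nearly level in C. miR-134-5p, studied in neurons as a repressor of Limk1 in dendritic spines, was at 279, 97.7 and 120 CPM and then 286, 121 and 114 CPM. miR-494-3p, one of the members studied in ischaemia, was at 198, 109 and 133 CPM and then 234, 89.9 and 129 CPM. miR-382-5p was at 213, 98.9 and 115 CPM and then 234, 109 and 109 CPM. None of these passed either test.

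At the distal end, miR-410-3p was at 210, 51.9 and 71.6 CPM in the controls and 216, 88.9 and 99.8 CPM under hypoxia. Its log2 fold change with the block was 0.43 (edgeR adjusted p = 0.154), and it was carried by letters B and C. Its 5p arm was at 3.08, 0.154 and 0.828 CPM and then 1.38, 1.04 and 1.81 CPM, where 3 counts correspond to between 0.177 and 0.244 CPM in these libraries. Besides the called members, those with the smallest p-values without the block were miR-329-5p and miR-154-3p (higher) and miR-539-5p (lower), none of which passed the adjusted threshold in either fit. miR-329-5p was at 73.1, 46.3 and 48.8 CPM and then 94.9, 54.4 and 74.9 CPM (log2 fold change with the block 0.41, edgeR adjusted p = 0.117). miR-154-3p was at 9.47, 6.3 and 4.2 CPM and then 15, 5.52 and 8.93 CPM (0.53, adjusted p = 0.232 by edgeR), and miR-539-5p at 3.72, 2.61 and 2.55 CPM and then 3.31, 1.23 and 1.74 CPM. With the block, the member nearest to the threshold among those not called was miR-1197-3p, named after its values were seen. It was at 7.21, 1.77 and 2.29 CPM and then 10.9, 3.62 and 4.64 CPM, higher in each letter, and its log2 fold change was 0.85 (SE 0.21) at an edgeR adjusted p of 0.0611.

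**Figure D4:**
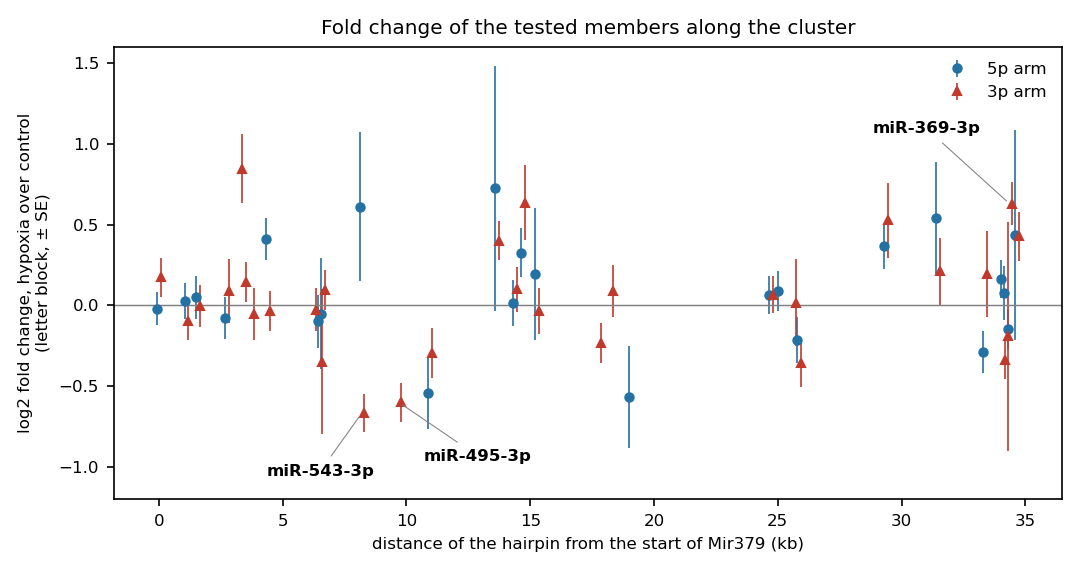
Log2 fold change of hypoxia over control with the letter block (y axis, ± SE) for each tested member against the distance of its hairpin from the start of Mir379 (x axis, kb), with 5p and 3p arms in different symbols. The 3 labelled members passed the adjusted threshold, and most others lie within 0.5 of 0 over the whole 34.7 kb.

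Most hairpins gave counts mainly from 1 arm. Of 32 hairpins with at least 100 counts, 22 had more from the 3p arm and 10 from the 5p arm, and in 17 the minor arm held under 10%. The 3p share was 4.0% for miR-379, 13.1% for miR-411, 0.579% for miR-541 and 0.354% for miR-134. At the other extreme it was 99.9% for miR-381 and 99.5% for miR-543. Both arms were present in similar amounts for miR-382 (43.2% 3p) and miR-329 (40.6% 3p). In the 22 hairpins with both arms tested, the arms had log2 fold changes of opposite sign with the block in 12. Some of these are near 0, such as 0.0493 (5p) and -0.00414 (3p) for miR-299a. The same count was not made over all hairpins, so the 12 are no result about the arms.

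The ratio of the arms compares products of the same hairpin. Where both arms have many counts, it hardly depends on the scaling between libraries or on the level of the cluster. For arms with few counts, such as miR-410-5p with 2 in control B, the constant of 0.5 makes the ratio depend on both. limma on log2(3p/5p) with 0.5 added to each count found none of the 22 hairpins of the cluster past an adjusted p of 0.05, against 1.06% of 189 hairpins tested (0.0% with the block). The 3p share of miR-369 was 64.2%, 55.9% and 60.2% in the controls and 73.2%, 68.7% and 74.2% under hypoxia, higher in each letter. The log2 ratio was higher under hypoxia by 0.77 (SE 0.23, limma adjusted p = 0.251, and 0.189 with the block). miR-369-5p itself was at 76.3, 46.1 and 41.3 CPM in the controls and 67.6, 39.3 and 40.4 CPM under hypoxia, so within every letter 1 arm was higher and the other lower under hypoxia. For miR-543 the log2 ratio was lower under hypoxia (difference -1.29, SE 0.47, limma adjusted p = 0.263), on a 5p arm with a mean of 1.36 CPM. For miR-409 the 3p share was 88.2%, 88.9% and 88.7% in the controls and 85.3%, 85.5% and 83.0% under hypoxia (log2 ratio -0.50, SE 0.20, limma adjusted p = 0.322). How many of the 189 hairpins have arm shares that do not overlap between groups was not counted. The separation in miR-369 and miR-409 therefore does not single them out.

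**Figure D5:**
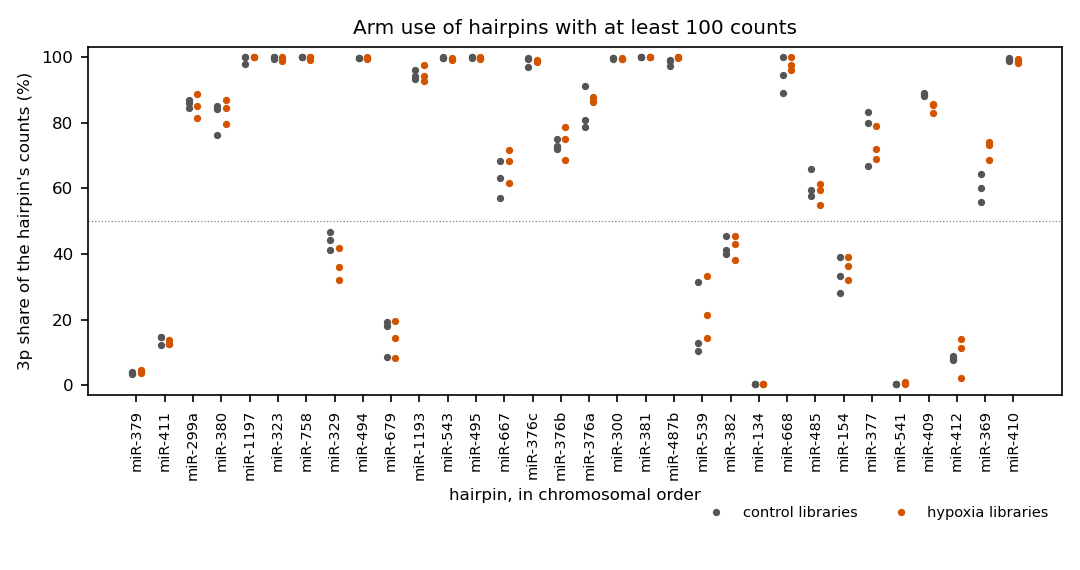
Share of each hairpin's counts that came from the 3p arm (y axis, percent) for the 32 hairpins with at least 100 counts, in chromosomal order, with a point for each control and each hypoxia library. Most hairpins sit near 0 or 100% in both groups. The hypoxia points of miR-369 lie above, and those of miR-409 below, the control points, a separation that was not counted over all hairpins.

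Related miRNAs outside the cluster were compared in the same fits. The Rtl1 antisense list had 15 tested miRNAs, none called without or with the block, 8 above 0 and a median log2 fold change of 0.04 with the block. On the Meg3 and Rian side 11 were tested and 1 was called with the block (miR-370-3p), with 4 above 0 and a median of -0.42. Of the miRNAs that lie among the hairpins but carry names outside the rule, miR-496a-3p was at 13.5 ± 7.22 CPM in the controls and 20.5 ± 11.7 CPM under hypoxia (SD, n = 3 each). Its log2 fold change with the block was 0.60 (SE 0.14, edgeR adjusted p = 0.0555). miR-666-5p was at 17 ± 8.65 and 14.1 ± 6.95 CPM. miR-362-3p, which shares the seed ACACACC with miR-329-3p, was at 44.4 ± 12.4 CPM in the controls and 80.1 ± 15.5 CPM under hypoxia. Its log2 fold change was 0.85 without the block (edgeR adjusted p = 0.65) and 0.87 with it (edgeR adjusted p = 0.025), while miR-329-3p had -0.04 with the block. The difference between these 2 miRNAs was not tested.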

How the data were processed

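Small RNA from 6 libraries was sequenced on an Illumina HiSeq per the labels. The authors deposited raw read counts per mature miRNA, whole numbers with 1 column per library. Named in the submitters' processing notes are bcl2fastq 2.0, DESeq2 and the build mm10, without their roles. Alignment, counting, the miRNA release and the handling of reads shared by similar miRNAs are steps not given in the sources used here. The table of predicted miRNAs was not used here.

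The members and lists were chosen with earlier results of these data known. All known miRNAs were fitted with edgeR 4.0.16 in R 4.3.3 (filterByExpr, TMM, quasi-likelihood test, Benjamini-Hochberg over 619 miRNAs, threshold 0.05), without a block. TMM factors ran from 0.8959 to 1.067. Arm ratios were fitted with limma 3.58.1 over 189 hairpins, and Clopper-Pearson intervals used scipy 1.17.1. The exact permutation and sign-flip tests went through all arrangements. Alternatives were other scalings, filters and tools (DESeq2 1.42.0, limma-voom), left-out libraries, and the column letter as a block. The letters pair the libraries by correlation: deviations from the group means correlated over all tested miRNAs at 0.52 (A), 0.43 (B) and 0.28 (C) for same-lettered libraries, and between -0.44 and 0.12 for others. Without the members the values were 0.43, 0.38 and 0.25, and between -0.36 and 0.033 for others. Deviations from a group mean sum to 0, so values for same and differing letters are not independent. The pairing is a reading of the data, since no label gives the letters. Sequences and positions are from RefSeq (GRCm38.p6), with host annotation from GENCODE M21.

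Members named with values are the 12 of highest mean CPM, every member called without or with the block, the 3 of smallest p in each direction in the fit without the block, and both arms of miR-379 and miR-410. Other members and miRNAs given with values (miR-369-5p, miR-543-5p, miR-1197-3p, the arms of miR-667 and miR-376c, miR-329-3p, miR-362-3p, miR-496a-3p, miR-666-5p) were named for their hairpin, position, seed or p with the block, after their values were seen.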

Additional observations from a re-analysis of the deposited data

How the results depend on the processing

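Each group had 3 libraries. The median standard error of a member's log2 fold change was 0.415 without the block and 0.142 with it, against 0.282 and 0.154 over all miRNAs. The number of members called went from 0 to 3 with the replicate block, 3 with the block in DESeq2 or limma-voom, 4 with the block and pair B left out, 6 with the block and no filter, and 7 with the block and library size only. Calls over all miRNAs rose as well, from 0 of 619 to 14 of 619 with the block, 36 of 1322 and 22 of 619 with it in DESeq2 and limma-voom, 23 of 627 without pair B, 64 of 1322 without the filter and 55 of 619 with library size only. The DESeq2, limma-voom, no-filter and library-size fits with the block were added after seeing the data. Over 21 alternatives miR-543-3p, miR-495-3p and miR-369-3p kept their direction in 21 and were called in 6, with log2 fold changes from -0.965 to -0.447, -0.823 to -0.405 and 0.234 to 1.06. With a filter of 10 CPM, 1 of 11 arm ratios of the cluster (miR-369) was called, in a fit that called 6 of 97 hairpins. The causes were not tested.

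The share difference ran from -0.188 (without hypoxia A) to 0.173 points (without control A) when a library was left out. Of the 54 members, 48 were above 0 without control A, and 8 of 53 without hypoxia A. Leaving out a library moved these log2 fold changes across 0: miR-379-5p from -0.492 to 0.422, miR-411-5p from -0.451 to 0.493, miR-409-3p from -0.839 to 0.077, miR-381-3p from -0.678 to 0.234, miR-300-3p from -0.548 to 0.504, miR-134-5p from -0.499 to 0.633, miR-494-3p from -0.428 to 0.282, miR-382-5p from -0.388 to 0.456, miR-411-3p from -0.494 to 0.256, miR-410-3p from -0.239 to 1.09, miR-379-3p from -0.293 to 0.596 and miR-410-5p from -0.463 to 1.43.

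Of 282 other alternatives of single members 25 changed sign. With the replicate block, miR-411-5p turned to 0.027 and miR-494-3p to -0.0263. With library size only, miR-379-5p turned to 0.0292 and miR-411-5p to 0.0508. With limma-voom miR-411-5p turned to 0.0376 and miR-494-3p to -0.0246, and miR-494-3p also turned with upper quartile scaling (-0.000486) and the 10 CPM filter (-0.0127). With the block and pair A left out, miR-379-5p was 0.00792, miR-411-5p 0.0976, miR-300-3p 0.141 and miR-494-3p -0.161. With pair C left out miR-411-5p was 0.0391 and miR-494-3p -0.0227, and with pair B left out miR-134-5p was -0.0506 and miR-410-5p -0.148. With the block, library size only gave 0.045 for miR-379-5p, 0.0938 for miR-411-5p and 0.03 for miR-300-3p. DESeq2 with the block gave 0.0161 for miR-411-5p and -0.037 for miR-494-3p, limma-voom with the block 0.0199 and -0.0259, and no filter with the block 0.00919 and -0.0441.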
